A study of Mus musculus with 40 samples.

Results

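Rpl26, Gm15772, Vcp, Cpne6, Cpt1c, Zfp975 and Gm10800 are 7 autosomal genes whose level in the hippocampus followed the level in the frontal cortex of the same cohort of mice. They were selected on their measured log2 levels, by a Pearson correlation (r) of 0.70 or more between the regions over 20 cohorts, out of 47643 genes in the count tables, of which 16355 had at least 10 summed counts in each region. All 7 were found in both tables and passed that filter. The correlation that chose them is described here without a test, and the tests concern the condition, the region and the donor, of which the test between donors is not independent of the choice.

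The brain RNA-seq data hold 40 libraries from wild-type swiss webster mice, an outbred stock, that were raised germ-free and colonized by fecal microbiota transfer (FMT). Each cohort received the stool of 1 of 10 human donors, collected either before (pre-KD FMT) or during (post-KD FMT) a clinical ketogenic diet, so there were 10 pre-KD and 10 post-KD cohorts, and all of them ate control chow. By the study's methods, tissue was taken a few days after colonization from several female juvenile mice per cohort. Each cohort gave 1 hippocampal and 1 frontal cortical library, so the spread between mice of a cohort is not seen, and p-values measure the spread between cohorts.

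Between 1140756 and 2095352 reads were counted on genes per library, and levels are given as CPM, a gene's counts scaled to its library's TMM-normalized total. Listed hippocampal markers had a summed level of 768 to 1231 CPM in hippocampal libraries against 427 to 757 CPM in frontal cortical ones, and cortical markers lay at 200.9 to 522 against 289 to 571 CPM, so those 2 ranges overlapped. Striatal markers reached 308 to 713 CPM in the frontal cortical libraries, against 25.3 to 210.0 CPM in the hippocampus, and choroid plexus markers 463 to 4316 CPM in the hippocampus. Although the methods name female mice, 4 Y-linked genes summed to 77.7 to 180 CPM in both regions of 4 cohorts, the pre-KD and post-KD cohorts of donors 9 and 10, where Xist lay between 3.35 and 27.3 CPM. Another cohort, pre-KD of donor 2, had 16.1 CPM in its hippocampal and 0 in its frontal cortical library, and the highest sum in the other cohorts was 2.25 CPM.

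The genes have unrelated roles. Rpl26 encodes a protein of the large ribosomal subunit, and Gm15772 is a processed pseudogene, a reverse-transcribed copy of an mRNA placed back into the genome. Vcp encodes a hexameric ATPase that extracts ubiquitin-tagged proteins from membranes and complexes, Cpne6 a calcium-dependent phospholipid-binding protein of the copine family that is abundant in hippocampal neurons, and Cpt1c the neuronal member of the carnitine palmitoyltransferase 1 family. Zfp975 is a zinc finger gene, and Gm10800 is a predicted gene without a known function.

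At r = 0.70 or more there were 42 of the 16355 genes tested in both regions (0.257%), and the median r of all of them was -0.0011, with 5th and 95th percentiles of -0.34 and 0.42. The 42 comprised the 7 genes described here, 5 X-linked or Y-linked genes (Xist, Kdm5d, Eif2s3y, Uty and Ddx3y) and 30 other autosomal genes. Of those 30, 27 averaged under 5 counts in a region and 3 averaged at least 20 in both, namely Hbb-bs, Mt2 and Dnajc21, so the 7 genes are not a complete list. Among autosomal genes averaging at least 20 counts in each region, 8 of 7379 reached the threshold (0.108%). Just inside it, with such counts, lay Vcp (r = 0.704), Cpne6 (r = 0.703) and Dnajc21 (r = 0.701), and just outside Afg3l1 (r = 0.696), Slc15a4 (r = 0.692) and Pinx1 (r = 0.687).

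**Figure D1:**
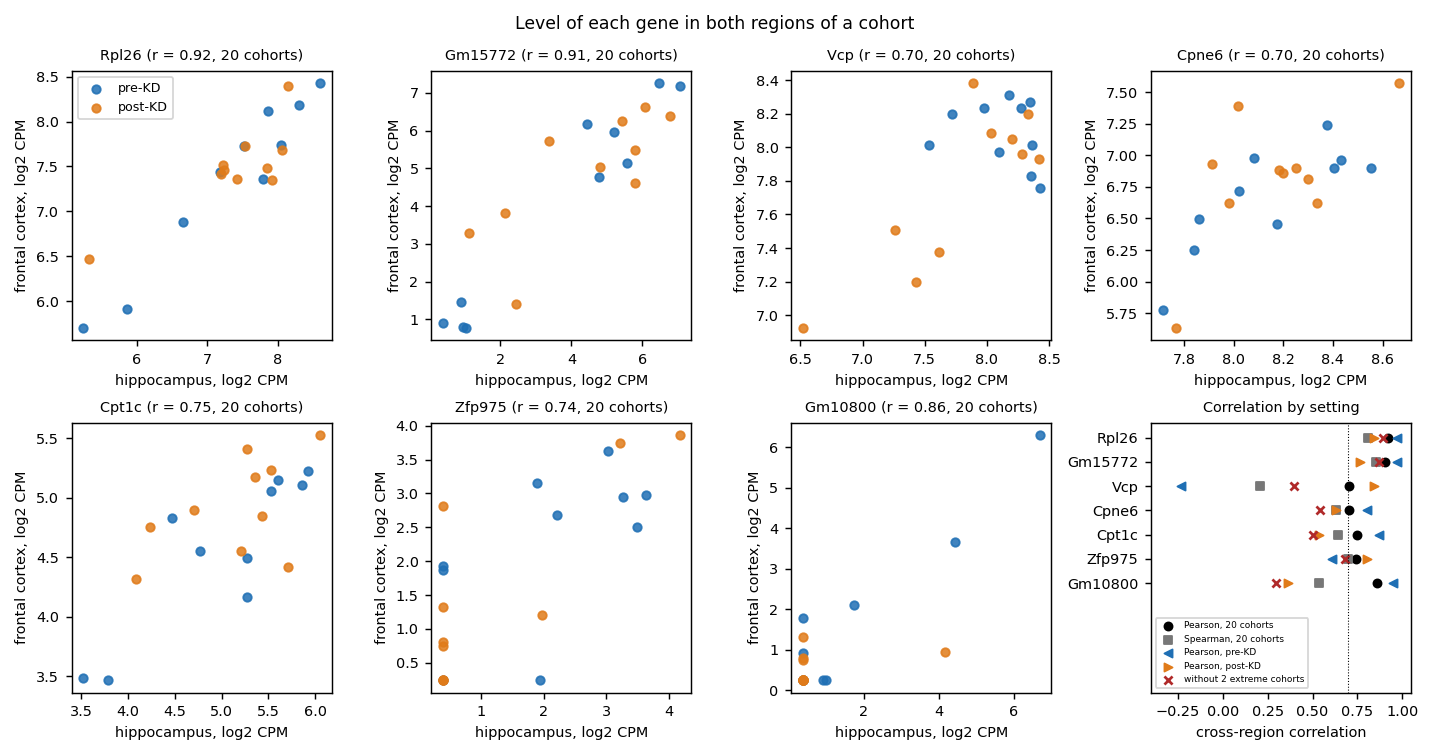
Each of the first 7 panels plots a gene's log2 CPM (prior count of 2) in the hippocampus (x axis) against the frontal cortex (y axis), with 1 point per cohort, blue for pre-KD and orange for post-KD; libraries without a count sit at the lowest level of an axis. The last panel gives the cross-region correlation under 5 settings, with the threshold of 0.70 as a dotted line: for Rpl26 and Gm15772 all settings lie above it, and for Vcp they run from -0.23 to 0.84.

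Rpl26 and Gm15772 had the closest agreement between regions, at r = 0.92 (Spearman's rho = 0.81) and r = 0.91 (rho = 0.85). They were the only members that stayed at 0.70 or more under every setting tried, whether ranks were used, donors were left out in turn (0.89 to 0.94 for Rpl26, 0.89 to 0.92 for Gm15772), the cohorts with Y-linked counts were left out (0.92 and 0.93), or pre-KD (0.97 and 0.97) and post-KD cohorts (0.84 and 0.77) were taken alone. Without the 2 cohorts farthest from the median hippocampal level, r was 0.89 for Rpl26 and 0.87 for Gm15772. For the other members it was then 0.68 for Zfp975, 0.54 for Cpne6, 0.50 for Cpt1c, 0.40 for Vcp and 0.30 for Gm10800. By Spearman's rho, Cpt1c was at 0.64, Cpne6 at 0.63, Gm10800 at 0.53 and Vcp at 0.21, and Zfp975 stayed at 0.70.

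Rpl26 (ENSMUSG00000060938) lies on chromosome 11 from 68901583 to 68906989 (plus strand, GRCm38, GENCODE M21), and Gm15772 (ENSMUSG00000062353) on chromosome 5 from 3236431 to 3236868 (plus strand), as a single exon. Over its whole length of 438 bases Gm15772 matched the coding part of the Rpl26 mRNA, with 436 identical bases and 2 differences, C177T and T288C (Rpl26 base first, positions counted from 1 at the first coding base, Gm15772 base last). The differences fall at chr11 68903187 and 68903298 in exons of Rpl26, and at chr5 3236607 and 3236718 in the pseudogene. The stretch that holds both differences is shown because they are the bases by which a read from here can be given to one gene or the other. It covers coding positions 139 to 288 of Rpl26 and chr5:3236569-3236718 of Gm15772, 5′ to 3′, with the differing bases in capitals and all others in lower case.
Rpl26: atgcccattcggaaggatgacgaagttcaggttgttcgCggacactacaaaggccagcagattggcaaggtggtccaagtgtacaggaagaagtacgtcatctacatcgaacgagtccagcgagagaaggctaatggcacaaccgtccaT
Gm15772: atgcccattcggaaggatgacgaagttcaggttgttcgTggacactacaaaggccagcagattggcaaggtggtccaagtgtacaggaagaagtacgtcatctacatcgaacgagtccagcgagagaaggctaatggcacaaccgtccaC
The longest run without a difference was 176 bases, longer than a sequenced read. A read inside such a run matches the sequence of both genes. How such reads were handled in counting is not given in the sources used here, so the division of counts between the genes is uncertain and was not tested. Of the 31-base words of Gm15772, 84.8% also occur in Rpl26. The next closest counted copy, Gm10136, shares 71.6% of them and had only 15 counts over all hippocampal and 41 over all frontal cortical libraries.

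In the hippocampus Rpl26 ran from 36.7 CPM (pre-KD, donor 8) over a median of 184 CPM to 386 CPM (pre-KD, donor 4). In the frontal cortex it ran from 50.9 CPM over 176 CPM to 344 CPM, with the same cohorts at both ends. The 3 highest cohorts, pre-KD of donors 3 and 4 and post-KD of donor 3, and the 3 lowest, pre-KD of donors 8 and 9 and post-KD of donor 4, were the same in both regions. Donor 4 thus held the highest pre-KD and the lowest post-KD library.

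Gm15772 ran the other way. It ranged from 0 to 131 CPM in the hippocampus (median 26.5) and from 0.524 to 153 CPM in the frontal cortex (median 32.8). In the pre-KD cohorts of donors 2, 3, 4 and 5, between 0 and 3 counts were found per library in either region, while Rpl26 had 301 to 616 counts there. In the pre-KD cohort of donor 8, where Rpl26 was lowest, Gm15772 had 211 hippocampal and 156 frontal cortical counts. Over the 20 libraries of a region, log2 CPM of the pair correlated at r = -0.66 (rho = -0.72) in the hippocampus and r = -0.65 (rho = -0.72) in the frontal cortex, and among genes averaging at least 20 counts each was the gene least like the other over the cohorts (r = -0.70). The lowest such r of the other members ran from -0.78 (Vcp with Cwc22) to -0.66 (Cpt1c with Dlk1), so a value of this size is not particular to the pair. These correlations are descriptions over libraries that share their normalization.

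Taken as a share of the reads of the pair, Gm15772 held 78.1% (exact Clopper-Pearson 95% interval 72.7% to 82.9%) in the hippocampus and 73.9% (67.5% to 79.7%) in the frontal cortex of the pre-KD cohort of donor 8. At the other end, 0 of 441 hippocampal counts were given to it in the pre-KD cohort of donor 2, where the exact interval reached 0.833% and 3 counts would be a share of 0.680%. The median share was 12.99% over hippocampal and 17.7% over frontal cortical libraries, and the shares of the 2 regions correlated at r = 0.93 over cohorts (rho = 0.91), with a largest difference of 16.7 percentage points. These intervals cover counting error only.

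The sum of the pair varied less than its parts. In the hippocampus it ran from 103 to 386 CPM, a coefficient of variation of 32.9% against 48.4% for Rpl26 and 107% for Gm15772, and in the frontal cortex from 93.2 to 344 CPM, 25.1% against 42.1% and 101%. The summed level still correlated between regions at r = 0.71 (rho = 0.65), with the pre-KD cohort of donor 9 lowest and that of donor 4 highest in both.

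**Figure D2:**
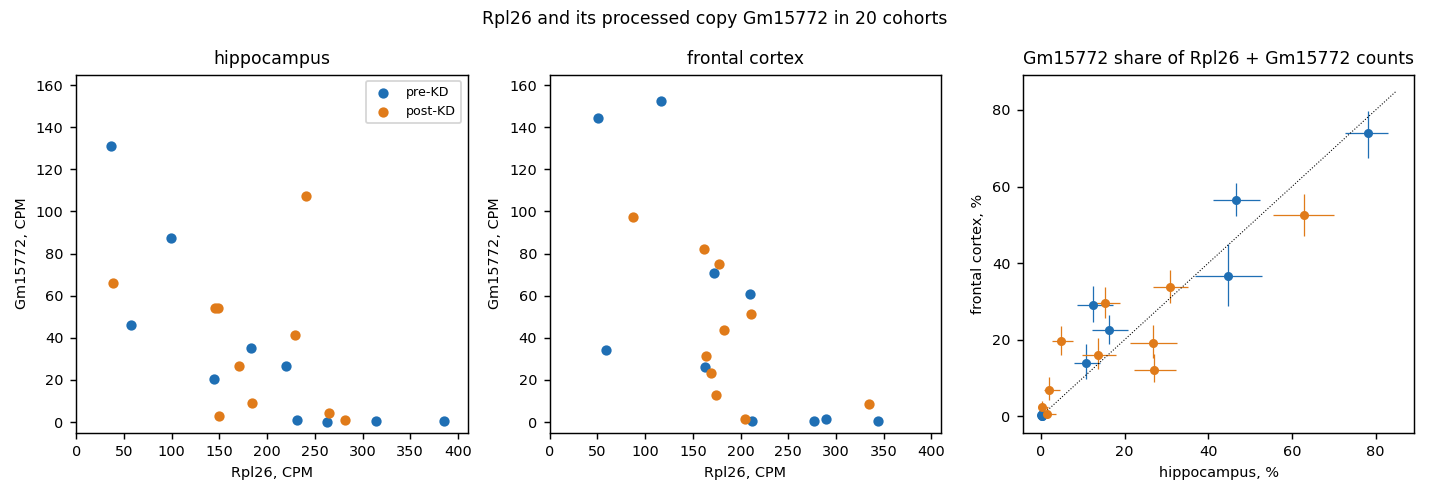
The left and middle panels plot Gm15772 (y axis, CPM) against Rpl26 (x axis, CPM) for 20 cohorts per region, blue pre-KD and orange post-KD; the pseudogene is near 0 in most cohorts where Rpl26 is high. The right panel plots the percentage of the pair's counts given to Gm15772 in the hippocampus (x axis) and frontal cortex (y axis) with exact 95% binomial intervals, and the dotted line marks equal shares; the shares run from 0 to 78.1%.

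Of 48 other genes of the large ribosomal subunit tested in both regions, 0 reached r = 0.70, against 0.257% of all genes. Lists of this size and smaller, here and below, are too short for 0 to differ from that share. The median r was 0.06 and the highest 0.47 (Rpl13a). Within 500 kb of Rpl26, 29 genes were tested in both regions, with r from -0.40 to 0.63 (Kdm6b). The 3 genes most like Rpl26 over the cohort means were Carmil3 (r = 0.70), Dsel (0.70) and Sh3kbp1 (0.67), and those most like Gm15772 were Prom1 (0.74), Extl3 (0.69) and Casd1 (0.68). The cross-region r of these 6 lay between -0.20 and 0.32. For each member, such a set of 3 is the top of all genes averaging at least 20 counts in each region. These sets were not tested.

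Vcp (ENSMUSG00000028452, chromosome 4 from 42979963 to 43000507, minus strand) also has a processed copy, Vcp-rs (ENSMUSG00000083327), on chromosome X from 104345829 to 104348234. Vcp-rs was looked at after its values were seen. Of its 2406 bases 2398 were identical to the Vcp mRNA, apart from 8 single-base differences and a gap of 15 bases in the copy. The 150 coding bases with the most differences, 3, are shown to let a reader see how few bases separate the pair. They are coding positions 1390 to 1539 of Vcp and chrX:104346696-104346845 (minus strand) of Vcp-rs, with differing bases in capitals.
Vcp: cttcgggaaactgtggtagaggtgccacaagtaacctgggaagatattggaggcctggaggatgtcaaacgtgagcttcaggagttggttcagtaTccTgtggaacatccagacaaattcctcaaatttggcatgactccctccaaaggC
Vcp-rs: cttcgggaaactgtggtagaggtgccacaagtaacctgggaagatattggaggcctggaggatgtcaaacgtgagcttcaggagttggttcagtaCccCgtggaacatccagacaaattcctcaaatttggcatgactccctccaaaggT
The division of reads between Vcp and Vcp-rs is therefore uncertain too.

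Pre-KD, hippocampal Vcp lay at 184 CPM at the lowest, 298 CPM at the median and 342 CPM at the highest, and post-KD at 90.6, 248 and 342 CPM. Frontal cortical levels were 215, 275 and 316 CPM pre-KD and 120.2, 245 and 333 CPM post-KD. The agreement between regions came from a few low cohorts: post-KD of donor 4 was lowest in both regions, at 90.6 and 120.2 CPM, and 4 of the 5 lowest cohorts were shared, all post-KD (donors 2, 4, 8 and 9). Of the 5 highest cohorts 1 was shared. Within the pre-KD cohorts r was -0.23, and within the post-KD cohorts 0.84.

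Vcp-rs had 0 to 21 counts in pre-KD hippocampal libraries and 0 to 105 post-KD, the highest values being 105, 83 and 80 counts for donors 2, 4 and 9. In the frontal cortex it had 0 to 15 counts pre-KD and 1 to 59 post-KD, led by donors 9 (59) and 8 (52). Averaged over the regions, Vcp and Vcp-rs correlated at r = -0.79 over cohorts (rho = -0.65), and the level of Vcp-rs itself did so between regions at r = 0.26. Adding the copy lowered the cross-region r of Vcp from 0.70 to 0.49. The reads given to Vcp-rs were at most 35.0% of the pair's, for post-KD donor 4 in the hippocampus.

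**Figure D3:**
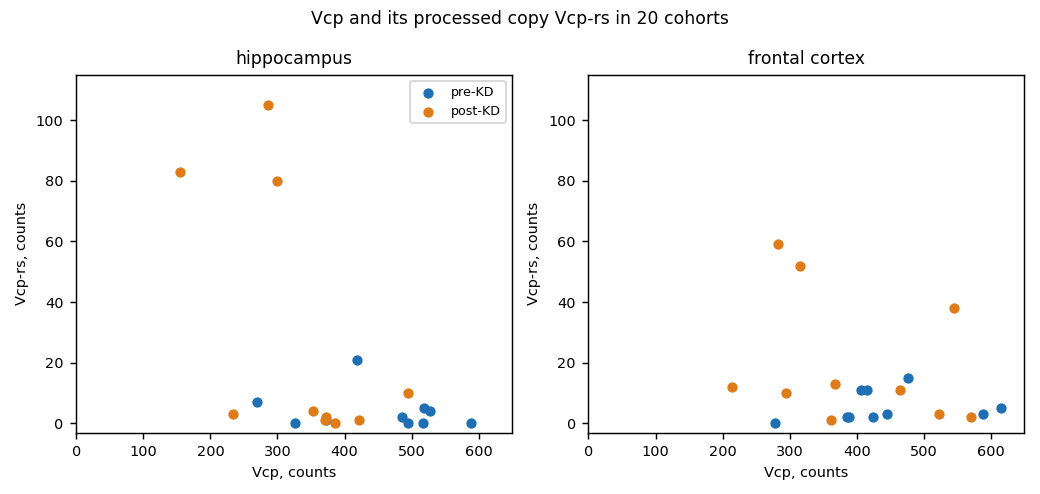
Counts of Vcp-rs (y axis) are plotted against counts of Vcp (x axis) in the hippocampus (left) and frontal cortex (right), with 1 point per cohort, blue pre-KD and orange post-KD. The libraries with more than 50 counts of Vcp-rs are all post-KD and have at most 316 counts of Vcp.

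Among 30 adaptors, cofactors and related ATPases of Vcp tested in both regions, 0 reached a cross-region r of 0.70, against 0.257% of all genes. The median was -0.02, the highest was 0.58 for Aspscr1, an adaptor of Vcp in membrane traffic, and the lowest was -0.70 for Nsfl1c, a cofactor of Vcp in membrane fusion. Of 12 neighbours within 500 kb the highest r was 0.24 (Fam214b). The cohort means of Vcp were most like those of Marc2 (r = 0.79), A830036E02Rik (0.76) and Gm44228 (0.76). Their own cross-region r was 0.06, 0.62 and -0.05.

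Cpne6 (ENSMUSG00000022212, chromosome 14 from 55510445 to 55517431, plus strand) was the member that differed between the regions. Hippocampal libraries ran from 209 CPM over 288 CPM to 405 CPM, and frontal cortical libraries from 48.5 CPM over 116 CPM to 189 CPM. The lowest hippocampal library lay above the highest frontal cortical one, and all 20 cohorts had less Cpne6 in the frontal cortex. The log2 fold change, frontal cortex against hippocampus, was -1.39 (standard error 0.11, edgeR adjusted p = 5.18e-31 with a term for each cohort), and the adjusted p lay between 1.54e-59 and 8.75e-17 over the alternatives. In that fit 554 of 19422 genes passed an adjusted p under 0.05 (2.85%), 385 higher and 169 lower in the frontal cortex (1196 and 905 without the cohort term), and Cpne6 was the only member among them. The median log2 fold change of all genes was 0.17 with the cohort term and 0.01 without it.

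The copines as a family did not share one direction between the regions. Of 7 further copines tested, 3 passed the adjusted threshold. Cpne5 rose from 58.4 ± 28.3 CPM in the hippocampus to 168 ± 40.5 CPM in the frontal cortex (SD, n = 20 libraries each) with a log2 fold change of 1.69 (SE 0.15, edgeR adjusted p = 1.06e-25). Cpne9 rose from 15.8 ± 14.1 to 32.3 ± 13.8 CPM (1.69, SE 0.41, edgeR adjusted p = 0.00284), and Cpne7 fell from 128 ± 52.7 to 29.1 ± 15.6 CPM (-2.17, SE 0.19, edgeR adjusted p = 3.60e-27). The cross-region r of the 7 further copines lay between -0.20 and 0.16 (Cpne3), and 0 reached 0.70, against 0.257% of all genes. In bulk tissue, fewer cells that hold a transcript and less of it per cell cannot be told apart.

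Across cohorts, Cpne6 was lowest pre-KD for donors 2 and 7 and post-KD for donor 7 in both regions, and highest post-KD for donor 2 in both. Donor 2 therefore held both ends of its hippocampal range, 209 CPM for the pre-KD cohort and 405 CPM for the other, and r was 0.54 without the cohorts of that donor. Without the cohorts with Y-linked counts r was 0.64. Within 500 kb, 30 genes had r between -0.33 and 0.39 (Rabggta). The cohort means of Cpne6 were most like those of Gpr108 (r = 0.75), Gm2a (0.74) and Nxph1 (0.74). Their own cross-region r was 0.46, 0.02 and -0.22.

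Cpt1c (ENSMUSG00000007783, chromosome 7 from 44959372 to 44974851, minus strand) was low, with 13 to 106 counts per library. Hippocampal levels were 10.2 CPM at the lowest, 37.3 CPM at the median and 64.9 CPM at the highest, and frontal cortical levels 9.86, 27.5 and 45.0 CPM. The pre-KD cohorts of donors 1 and 2 were the 2 lowest in both regions, and post-KD of donor 7 was the highest in both. Taken without those 2 lowest cohorts, which are also the farthest from the median, r was 0.50. Cpt1c was lower in the frontal cortex in 15 of 20 cohorts, a log2 fold change of -0.33 (SE 0.29, edgeR adjusted p = 0.773).

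Of 16 other genes of the carnitine and fatty acyl transport list, 0 reached a cross-region r of 0.70, against 0.257% of all genes. The median was -0.00077 and the highest value 0.22 (Acsl1, which activates long-chain fatty acids). Of 50 genes within 500 kb of Cpt1c the highest r was 0.49 (Scaf1). Irak1bp1 (r = 0.73), Fam189b (0.72) and Pappa (0.70) were most like Cpt1c over the cohort means, with a cross-region r of 0.19, 0.19 and 0.08.

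Zfp975 (ENSMUSG00000069727, chromosome 7 from 42660105 to 42692742, minus strand) was close to the counting floor, where 3 counts correspond to 1.43 to 2.63 CPM. It had no count in 10 of 20 hippocampal and 5 of 20 frontal cortical libraries, and at most 20 and 25 counts, both in the post-KD cohort of donor 3. In 9 cohorts both regions had counts and in 4 neither did. With more than 3 counts taken as present, 8 cohorts had it in both regions, 7 in neither and 5 in one region, so presence followed the cohort in 15 of 20. Cohorts with counts in neither region were pre-KD and post-KD of donor 1 and post-KD of donors 4 and 5.

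Zfp975 belongs to a cluster of similar zinc finger genes, and 46.1% of its 31-base words occur in other annotated transcripts, most of them (24.9%) in Zfp976, which had a cross-region r of 0.08. How reads were divided among these genes is uncertain. Of 10 genes of the KRAB corepressor machinery, through which many zinc finger proteins silence DNA, 0 reached 0.70, against 0.257% of all genes. Trim28, the core scaffold of that machinery, had the highest r at 0.14. Only 3 neighbours within 500 kb were tested, with r up to 0.44 (Gm44997). Kansl1l (r = 0.70), Wdr19 (0.67) and Sfswap (0.65) were most like Zfp975 over the cohort means, with a cross-region r of 0.24, -0.15 and 0.18.

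Gm10800 (ENSMUSG00000075014, chromosome 2 from 98666547 to 98667301, minus strand) rested on very few libraries. Pre-KD of donor 8 held 164 of the 217 hippocampal and 84 of the 121 frontal cortical counts, and pre-KD of donor 5 held 28 and 22. Post-KD of donor 5 had 20 hippocampal counts and 1 frontal cortical count. No other library had more than 5 counts, and 14 hippocampal and 11 frontal cortical libraries had none. Without the cohorts of donor 8 the cross-region r was 0.66, and without both pre-KD cohorts of donors 5 and 8 it was 0.30.

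The sequence of Gm10800 is repeated: 42.0% of its 31-base words occur in 11 other annotated genes, and Gm10717 (2 and 0 counts in the regions) and Gm10801 (3 and 1) shared most of them. Of 12 further predicted genes of this satellite-like kind, 1 had enough counts to be tested in both regions, Gm26870, with r = 0.95 at an average of 0.9 hippocampal and 0.6 frontal cortical counts per library. No gene within 500 kb of Gm10800 could be tested in both regions. Celf4 (r = 0.77), Dync1h1 (0.76) and Calm3 (0.74) were most like Gm10800 over the cohort means, with a cross-region r of 0.12, 0.68 and 0.20. These values too rest on the few cohorts that hold most of its counts.

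Per kilobase of exon, the mean hippocampal level ordered the genes as Rpl26 (131 ± 63.5 CPM per kb, SD, n = 20 libraries), Gm15772 (81.7 ± 87.7), Cpne6 (67.7 ± 12.6), Vcp (53.6 ± 14.9), Gm10800 (10.8 ± 34.9), Cpt1c (6.47 ± 2.83) and Zfp975 (0.803 ± 1.09). Neighbours in this order overlapped within 1 SD, apart from Cpt1c and Zfp975. The place of Gm10800 rested on a few libraries, since its median was 0 and its highest library stood at 154 CPM per kb. In the frontal cortex Cpne6 (26.1 ± 7.88) lay below Vcp (51.4 ± 12.1), beyond 1 SD of each, and the order was otherwise as in the hippocampus. The order assumes reads along whole transcripts; a kit for reads from transcript ends is also listed among the study's materials.

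Whether post-KD cohorts differed from pre-KD cohorts was tested in each region, and 0 of the 7 genes passed an adjusted p under 0.05 in either. The background was 1 of 17529 genes in the hippocampus (0.00570%) and 1 of 17873 in the frontal cortex (0.00560%), with 0 and 3 genes when the donor was a block. At an unadjusted p under 0.05 stood 10.1% and 9.68% of all genes, and of the members Gm10800 in each region, which had 116 frontal cortical counts pre-KD but 5 post-KD and so passed the filter on low counts there only through the group where it was high. Its frontal cortical p is therefore no support for a difference, and the stricter filterByExpr left Gm10800 and Zfp975 out of both fits between conditions. By DESeq2 the members at an adjusted p under 0.05 also numbered 0.

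For Gm10800 the log2 fold change was -2.91 (SE 1.22, edgeR unadjusted p = 0.0191, adjusted p = 0.261) in the hippocampus and -4.68 (SE 1.19, unadjusted p = 0.000188, adjusted p = 0.122) in the frontal cortex. Without the cohorts of donor 8 the fold changes were -0.51 (edgeR unadjusted p = 0.744) and -2.30 (unadjusted p = 0.118, adjusted p = 0.779). Without those of donor 5 the hippocampal value was -7.20. The 9 post-KD libraries left there all had 0 counts, so that value stands against an empty group and does not measure the size of a difference. Blocking on donor gave -2.54 and -2.22 (edgeR unadjusted p = 0.0795 and 0.132), and DESeq2 gave -4.30 and -2.59 (unadjusted p = 0.0603 and 0.123). Vcp was at -0.26 (SE 0.17, edgeR adjusted p = 0.797) and -0.27 (SE 0.13, adjusted p = 0.521), lower post-KD for 6 and 7 of 10 donors. Blocking on donor moved frontal cortical Vcp to -0.32 (edgeR unadjusted p = 0.0147, adjusted p = 1), so that Vcp and not Gm10800 then stood at an unadjusted p under 0.05 there, and no member did in the hippocampus. The post-KD means of Vcp were 237 ± 82.9 CPM and 226 ± 69.5 CPM, against 283 ± 54.0 and 272 ± 35.4 CPM pre-KD (SD, n = 10 libraries each). Summed with Vcp-rs they were 255 ± 68.5 and 237 ± 65.3 CPM, against 286 ± 52.8 and 275 ± 34.4 CPM, and that sum was not tested.

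For the remaining genes the groups overlapped throughout. Hippocampal Rpl26 averaged 193 ± 112 CPM before and 185 ± 71.8 CPM during the diet of the donors, and frontal cortical Rpl26 189 ± 97.1 and 187 ± 61.7 CPM (SD, n = 10 libraries each, here and in what follows). Gm15772 averaged 34.9 ± 43.7 CPM with pre-KD and 36.7 ± 34.7 CPM with post-KD stool in the hippocampus, and 49.3 ± 58.2 against 42.7 ± 33.2 CPM in the frontal cortex. In both genes the SD was many times the difference of the means. For Cpne6 the hippocampal means were 287 ± 57.2 and 289 ± 53.3 CPM, and the frontal cortical ones 104 ± 28.4 and 118 ± 38.3 CPM. For Cpt1c they were 35.2 ± 17.4 and 37.3 ± 15.1 CPM, and 24.4 ± 9.88 and 30.1 ± 8.999 CPM, with post-KD higher for 6 and 8 of 10 donors. Zfp975 stood at 4.43 ± 4.25 and 2.73 ± 5.53 CPM, and at 4.69 ± 3.52 and 3.49 ± 5.20 CPM, with post-KD lower for 6 donors in each region.

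**Figure D4:**
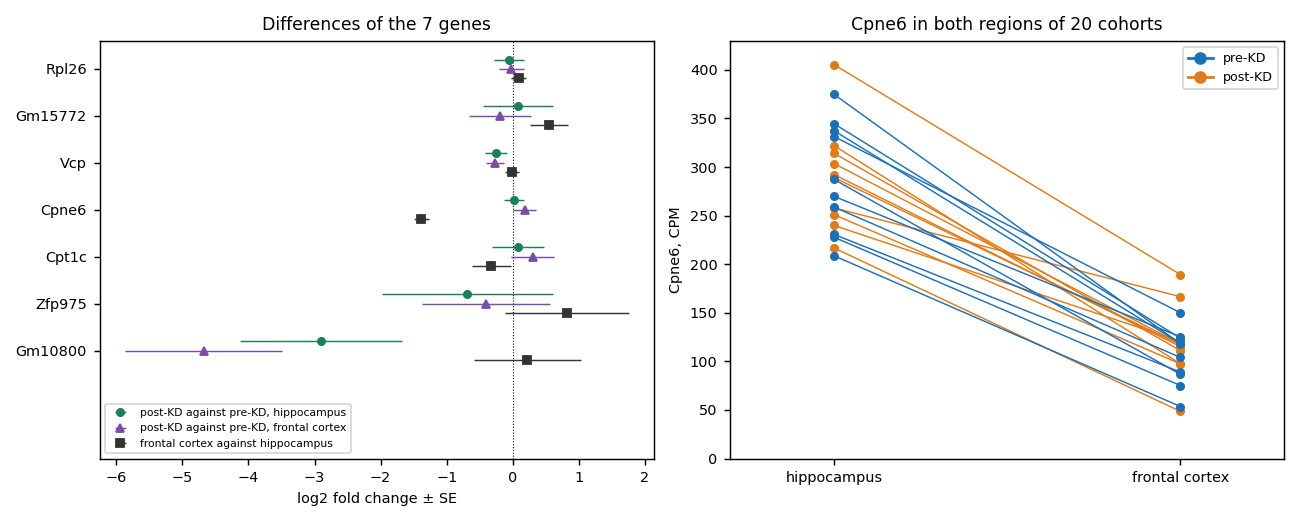
The left panel gives the edgeR log2 fold change of each gene with its standard error for post-KD against pre-KD in the hippocampus (green circles) and frontal cortex (purple triangles) and for frontal cortex against hippocampus (black squares). The right panel joins the Cpne6 level (CPM) in the 2 regions of each cohort, blue pre-KD and orange post-KD; all 20 lines fall.

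Of the related lists, 0 genes had an adjusted p under 0.05 between conditions in either region, against 0.00570% and 0.00560% of all genes. At an unadjusted p under 0.05, 1 of 48 large-subunit genes was lower post-KD in the hippocampus, and 5 were higher and 1 lower in the frontal cortex, against 10.1% and 9.68% of all genes. Of these, Rpl21 was lower in both (-0.37 with SE 0.16 and -0.30 with SE 0.13, edgeR adjusted p = 0.315 and 0.298). The median log2 fold change of that list was -0.04 and 0.10, against -0.01 and 0.01 for all genes. Of 30 Vcp partners, 3 hippocampal and 0 frontal cortical tests had such a p, beside the same shares of all genes, to which the hippocampal count was close. The 3 were Ufd1, a substrate-recruiting cofactor (0.64, SE 0.28, edgeR adjusted p = 0.285), Ube4b, a ubiquitin chain assembly factor (0.46, SE 0.22, adjusted p = 0.450), and Spata5, a related ATPase (-2.33, SE 1.12, adjusted p = 0.427). In the other lists such a p was found for Cpne8 in the frontal cortex, 1 of 7 copines (-0.87, SE 0.41, edgeR adjusted p = 0.430). In the hippocampus it was found for Gm26870, the 1 satellite-like gene tested (-2.95, SE 1.38, edgeR adjusted p = 0.403). At an average of 0.9 counts per hippocampal library, that value is no support for a difference.

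Between the regions, the fold changes of the other members were 0.09 for Rpl26 (SE 0.11, edgeR adjusted p = 0.852), 0.55 for Gm15772 (SE 0.29, adjusted p = 0.475), -0.01 for Vcp (SE 0.10, adjusted p = 0.988), 0.81 for Zfp975 (SE 0.94, adjusted p = 0.831) and 0.22 for Gm10800 (SE 0.80, adjusted p = 0.965). The sign for Gm10800 turned without the cohort term (-0.52), and its mean level was lower in the frontal cortex (4.92 against 7.12 CPM). The fold changes are log2 values beside the all-gene median of 0.17, which was 0.01 without the cohort term. Of the large-subunit list 1 of 48 genes passed, against 2.85% of all genes, namely Rpl17, lower in the frontal cortex (-0.43, SE 0.12, edgeR adjusted p = 0.0241).

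Each donor gave a pre-KD and a post-KD cohort, which allows the question of whether a gene's level followed the donor. Both cohorts of donors 9 and 10 had the Y-linked counts described above, so there the donor and the sex of the mice cannot be told apart. Over 10 donors the pre-KD and post-KD levels (log2 CPM) correlated at between r = -0.14 and r = 0.45 in the 14 combinations of gene and region. None passed adjustment over the 14 permutation tests (two-sided, 100000 resamples, lowest adjusted p = 0.979 for r and 1 for rho). The highest was Gm10800 in the hippocampus (r = 0.45, permutation p = 0.200; rho = 0.43, p = 0.200). Rpl26 was at r = -0.07 (permutation p = 0.839; rho = 0.35, p = 0.330) in the hippocampus and r = 0.05 (p = 0.883; rho = 0.27, p = 0.448) in the frontal cortex. Gm15772 was at r = 0.30 (permutation p = 0.375; rho = 0.25, p = 0.493) and r = 0.20 (p = 0.590; rho = -0.03, p = 0.946). Without the 2 donors farthest from the median pre-KD level, none passed adjustment, and Cpne6 in the hippocampus turned from r = -0.10 to r = 0.79 (permutation p = 0.0205, adjusted p = 0.266).

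edgeR's test over all 10 donors, with the condition as a covariate, called Gm15772 in both regions (adjusted p = 0.000283 and 1.97e-13) and Rpl26 in the frontal cortex (0.0116, against 0.208 in the hippocampus). Called genes were 13 of 17529 (0.0742%) and 16 of 17873 (0.0895%). With a Y-linked covariate they were 7 and 16, and the members called numbered 1 and 2 as before. At an unadjusted p under 0.05 stood 3 of 7 members in each region, those 2 and Gm10800, against 1.72% and 2.29% of all genes. This count is not independent of the choice of genes, since differences between donors are part of the differences between cohorts, and both regions share their cohorts. By DESeq2's likelihood-ratio test 0 members were called (Gm15772 at adjusted p = 0.685 and 0.792), and with Rpl26 and Gm15772 summed into 1 feature edgeR called 0 as well. Without the cohorts of donor 3, Gm15772 was no longer called in the hippocampus (edgeR adjusted p = 0.187), and Rpl26 was no longer called in the frontal cortex without those of donors 3, 8 or 9 (0.863, 0.206 and 0.150).

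**Figure D5:**
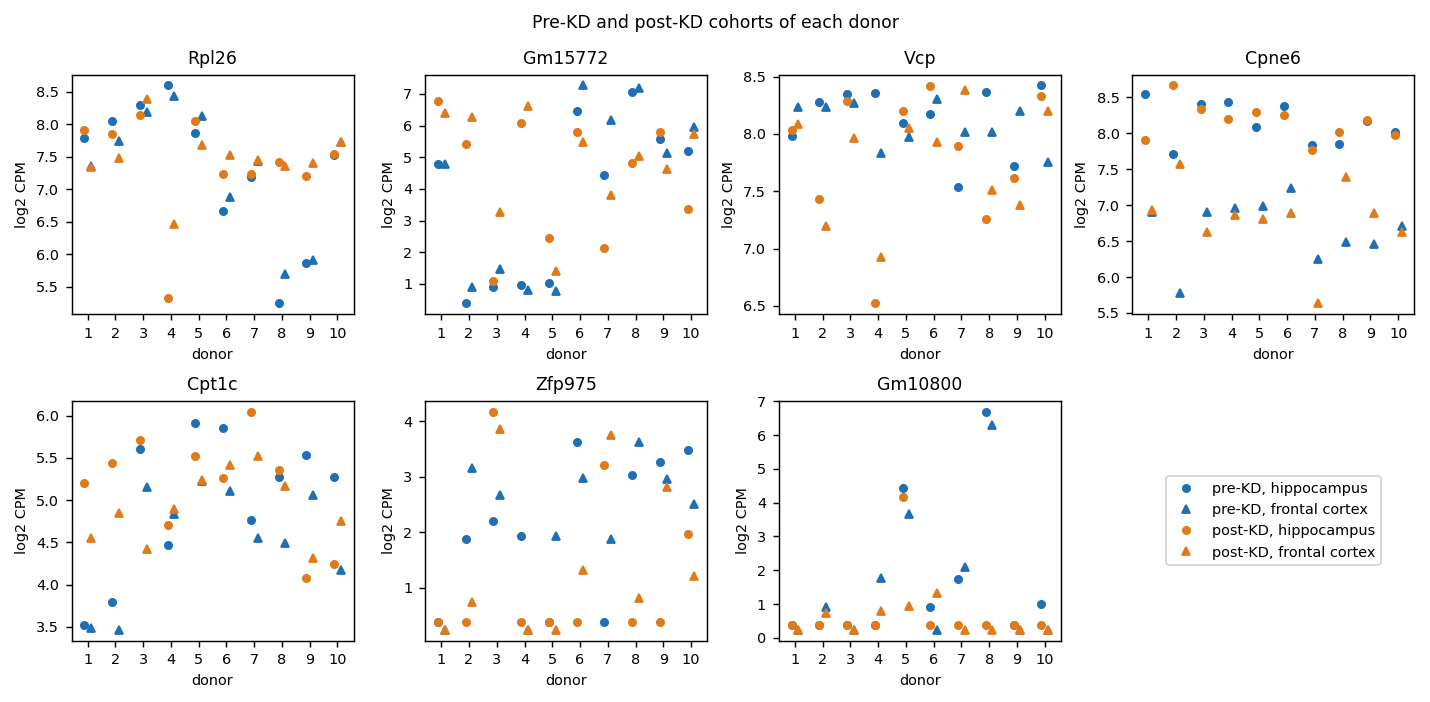
Log2 CPM (y axis, prior count of 2) of each gene is plotted for donors 1 to 10 (x axis), circles for the hippocampus and triangles for the frontal cortex, blue pre-KD and orange post-KD. For Rpl26 the blue and orange symbols are far apart for several donors, such as donor 4.

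The cohort patterns of the 7 genes differed from each other. Over cohort means, the strongest relation after that of Rpl26 and Gm15772 was between Vcp and Zfp975 (r = 0.46), followed by Zfp975 and Cpne6 (-0.43). With the summed Y-linked genes, the members correlated at between -0.29 (Cpt1c) and 0.18 (Zfp975) over cohorts, and with Xist at between -0.25 (Zfp975) and 0.22 (Gm10800). Blood markers followed the cohort themselves (cross-region r = 0.78), and their sum correlated with the members at between -0.46 (Vcp) and 0.40 (Cpt1c). The summed striatal markers stood at r = 0.58 with Vcp, the frontal cortical at 0.51 with Vcp and 0.50 with Zfp975, the hippocampal at 0.49 with Cpne6, the microglial at -0.51 with Rpl26 and 0.48 with Gm15772, and the choroid plexus markers at -0.54 with Gm10800. The part of these cell types and of the dissected tissue in the members' patterns was not tested.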

How the data were processed

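Brain RNA was measured in 40 libraries (2 regions, 2 conditions, 10 donors). The authors deposited a table of raw counts for each region, with 47643 Ensembl identifiers, from paired reads aligned to mm10 with STAR 2.5.2a and counted with HTSeq 0.6.0, per the labels. The annotation release is not given in the sources used here. Of the identifiers, 47224 were matched to GENCODE M21 (GRCm38) and 419 were not. No unassigned rows were listed, and all columns were used. Genes with at least 10 summed counts were fitted with edgeR 4.0.16 (quasi-likelihood, TMM, R 4.3.3) and Benjamini-Hochberg adjustment over all genes. DESeq2 1.42.0 was an alternative. Correlations used log2 CPM with a prior count of 2 (numpy 2.4.6, scipy 1.17.1, Python 3.11.15). Donor numbers link the cohorts by stool donor, but deviations of same-donor libraries over 7671 genes correlated at -0.05 to 0.04, and 0 pairs exceeded 0.1. No 2 libraries of a region were identical (0 pairs). Scripts were tested on simulated data. Sequences came from GENCODE M21 transcripts.

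The members and the gene lists were chosen with earlier results of these data known. Named genes were the members, the 3 genes most like each in cohort means, the 3 nearest each side of r = 0.70, the gene with the highest r in each list and within 500 kb, and list genes at an adjusted p under 0.05. Others were chosen after their values were seen. The neighbours of Gm15772 are not reported here.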

Additional observations from a re-analysis of the deposited data

Results flagged for a closer look

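In 28 groups of 10 libraries (7 genes, 2 regions, 2 conditions), 3 had a library whose distance on the log2 CPM scale to the nearest other library was a large part of the group's range by Dixon's test. Chance flags about 1 group in 20. That rate does not apply to Gm10800 in post-KD hippocampus, where all libraries but 1 were tied at 0 and any count would be flagged. It is also uncertain for other groups with many libraries tied at 0, such as the other groups of Gm10800, with 5 or 6 of 10. Rpl26 in post-KD hippocampus had its lowest library in donor 4, with 66 counts (38.8 CPM). Gm10800 in post-KD hippocampus had its highest in donor 5, with 20 counts (16.6 CPM), the other 9 libraries having none. Cpne6 in post-KD frontal cortex had its lowest in donor 7, with 83 counts (48.5 CPM). In the other region of the same cohort, Rpl26 had 156 counts (87.6 CPM, the lowest post-KD), Gm10800 had 1 count and Cpne6 had 354 counts (217 CPM, the lowest post-KD).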

How the results depend on the processing

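Genes called post-KD against pre-KD in the hippocampus numbered 1, and 0 with DESeq2, filterByExpr or the donor as a block, 1291 without a filter, and 0 to 1 with a donor left out. In the frontal cortex they numbered 1, and 2 with DESeq2 and 3 with the block. No paired fit called a member. Between donors, 13 hippocampal genes became 57 with DESeq2 and 7 with a Y-linked covariate (10 to 14 with a donor left out), and 16 frontal cortical genes became 5 with filterByExpr (12 to 18). Members called there were 1 and 2, and 0 and 0 with DESeq2 or the Rpl26 and Gm15772 sum, 1 in the frontal cortex with filterByExpr, and 0 to 1 and 1 to 2 with a donor left out. Between regions, 554 genes became 1033 with DESeq2 and 2101 with no replicate block (447 to 555 with a donor left out). Members at r = 0.70 or more numbered 7, and 3 by ranks, 4 within post-KD cohorts, 2 without the farthest cohorts and 4 to 7 with a donor left out. The causes were not tested. Signs turned for uncalled values. With the block, post-KD fold changes were 0.15 and 0.13 for Rpl26 and 0.43 for Gm15772 in the frontal cortex, with the Y-linked covariate 0.0021 for Rpl26 in the frontal cortex, and with no block between regions -0.52 for Gm10800. With a donor left out, post-KD log2 fold changes ran from -0.0773 to 0.22 (Cpt1c), -0.0906 to 0.0910 (Cpne6), -0.16 to 0.23 (Rpl26) and -0.31 to 0.65 (Gm15772) in the hippocampus, and from -0.0051 to 0.25 (Cpne6), -0.12 to 0.19 (Rpl26) and -0.57 to 0.19 (Gm15772) in the frontal cortex; between regions, from -0.068 to 0.0277 (Vcp) and -0.24 to 0.78 (Gm10800). Correlations of a donor's cohorts turned sign by ranks (hippocampus: Rpl26 0.35, Cpt1c 0.13, and frontal cortex: Gm15772 -0.0303, Gm10800 0.17, Vcp -0.0545), with a prior count of 0.5 (frontal cortical Gm10800 0.0473), and without the 2 farthest donors (hippocampus: Cpt1c 0.0598, Cpne6 0.79, and frontal cortex: Rpl26 -0.10, Gm10800 0.0492, Zfp975 -0.27, Cpt1c -0.15, Vcp -0.24). The cross-region r of Vcp was -0.23 pre-KD. Hippocampal Gm10800 gave no value without the 2 farthest donors, since its post-KD libraries were then all at 0. The within-condition, Y-linked cohort and summed settings were chosen after seeing the data. Depth limits Zfp975 and Gm10800, most of whose libraries hold under 10 counts.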
